A study of Mus musculus with 12 samples.

Results

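The genes described here are 10 growth factors and cytokines by which macrophages (Mφ) can act on fibroblasts, vessels and cardiomyocytes: Igf1, Tgfb1, Tgfb3, Pdgfa, Pdgfb, Pdgfc, Vegfa, Vegfb, Hbegf and Osm. They were chosen by name, as the rows of these 10 symbols among the 24445 gene symbols of the count tables. All 10 were present in the tables, and all 10 passed the filter on low counts that left 14608 genes for testing. RNA had been sequenced from CD14+/CD64+ cells sorted by FACS from the digested hearts of 12 C57BL6/J mice, 4 in each of 3 groups, and every mouse gave its own library. The ECH mice (early concentric hypertrophy) had been infused by pump for 14 days with 30 mg/kg/day of isoproterenol, which stimulates β-adrenergic receptors, and the HF mice (heart failure) for 28 days at an equal dose. The Ct mice (controls) had pumps filled with saline. The methods give adult male mice over a range of ages, and 14 or 28 days for pumps with or without the drug. Which of these times applied to each control is not stated in the sources used here, nor is the age of single mice. No allele or transgene is named for any group.

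Growth factors of these families are secreted or shed ligands. IGF-1 and the ligands of the EGF receptor family act on tyrosine kinase receptors of cardiomyocytes and other cells, TGF-β is secreted in a latent form that must be activated before it can signal, and PDGF and VEGF ligands act on mesenchymal and endothelial receptors. In the injured heart, resident and recruited Mφ are known as a source of several of them, and their release is linked in textbooks to scar formation, vessel growth and hypertrophy.

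The libraries held between 88466559 and 111180291 counts, and the number of genes with at least 1 count lay between 13600 (HF mouse 1) and 15940 (ECH mouse 4). The defining markers of Mφ, Cd14, Fcgr1 (which encodes CD64), Adgre1 and Csf1r, were detected in every library, with a lowest value of 71.5 counts per 1000000 counts of the library (CPM, scaled by TMM) for Fcgr1. Of these, the sort used the products of Cd14 and Fcgr1. Summed over 12 Mφ markers, the level lay between 35010 and 39240 CPM in Ct, 36520 and 48890 in ECH and 38120 and 48650 in HF. Markers of other cells were also present. The B-cell list summed to between 96.6 and 446 CPM in Ct, above all ECH and HF libraries (at most 79.8 CPM), the neutrophil list to between 334 and 1583 CPM in Ct, 168 and 456 in ECH and 127 and 1238 in HF, and the fibroblast list to between 31.8 and 206.9 CPM in Ct (mean 99.7), 94.8 and 490.5 in ECH (mean 251.5) and 88.1 and 259.1 in HF (mean 166.7). Over all libraries the resident Mφ list summed to between 8141 and 12750 CPM, Ly6C-high monocytes to between 396.5 and 932, dendritic cells to between 105.5 and 235, T and NK cells to between 3.45 and 89.2, mast cells to between 1.47 and 55.8, mural cells to between 5.48 and 21.7 and cardiomyocytes to between 57.8 and 188 CPM. The part of these cells in the values below was not tested. In RNA of sorted cells, fewer cells that express a gene and less RNA of that gene per cell cannot be told apart.

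The numbers that the labels attach to the libraries form a pair of runs. One run, called set A here, holds the 4 Ct mice with ECH mice 1 and 2, and the other, set B, holds ECH mice 3 and 4 with the 4 HF mice. These sets were inferred from the numbers, and neither the labels nor the methods state them. For Ct and HF the set and the group cannot be told apart. ECH mice 3 and 4 also share the first code of their titles, as do Ct mice 1 and 2, Ct mice 3 and 4, and HF mice 1 and 2. The meaning of the code is not given, and the samples carry no other sign that says whether they came from 1 cage or 1 sorting day.

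Levels can be compared between genes only per length. Expressed as CPM per kb of annotated exons and averaged over the 12 mice, Osm stood highest at 55.7 ± 20.6 (SD, n = 12), followed by Igf1 at 30.4 ± 7.04. Osm encodes oncostatin M, a cytokine of the interleukin-6 family, and exceeded Igf1 per kb in 11 of the 12 mice. Igf1, which encodes insulin-like growth factor 1, exceeded Tgfb1 per kb in 12 of 12.

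Below these came a middle tier. Tgfb1 (14.4 ± 2.13 CPM per kb), Vegfb (14.0 ± 3.79) and Pdgfc (11.5 ± 2.74) changed places between mice: Tgfb1 lay above Vegfb in 7 of 12 and Vegfb above Pdgfc in 7 of 12, so these neighbours did not differ beyond their spread. Pdgfb (7.30 ± 3.02 CPM per kb) lay below Pdgfc in 11 of 12 mice and above Pdgfa (4.003 ± 1.35) in 12 of 12. Hbegf (2.11 ± 1.19 CPM per kb), Vegfa (1.89 ± 1.28) and Tgfb3 (1.80 ± 1.36) were the lowest and overlapped widely. Hbegf exceeded Vegfa in 8 of 12 mice, and Vegfa exceeded Tgfb3 in 7 of 12. The order of the 10 means was the same when the longest transcript was used as the length. Within families, the lowest Tgfb1 value per kb lay above the highest of Tgfb3 (10.3 and 4.03 CPM per kb), and the lowest of Vegfb above the highest of Vegfa (8.46 and 4.86 CPM per kb).

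**Figure D1:**
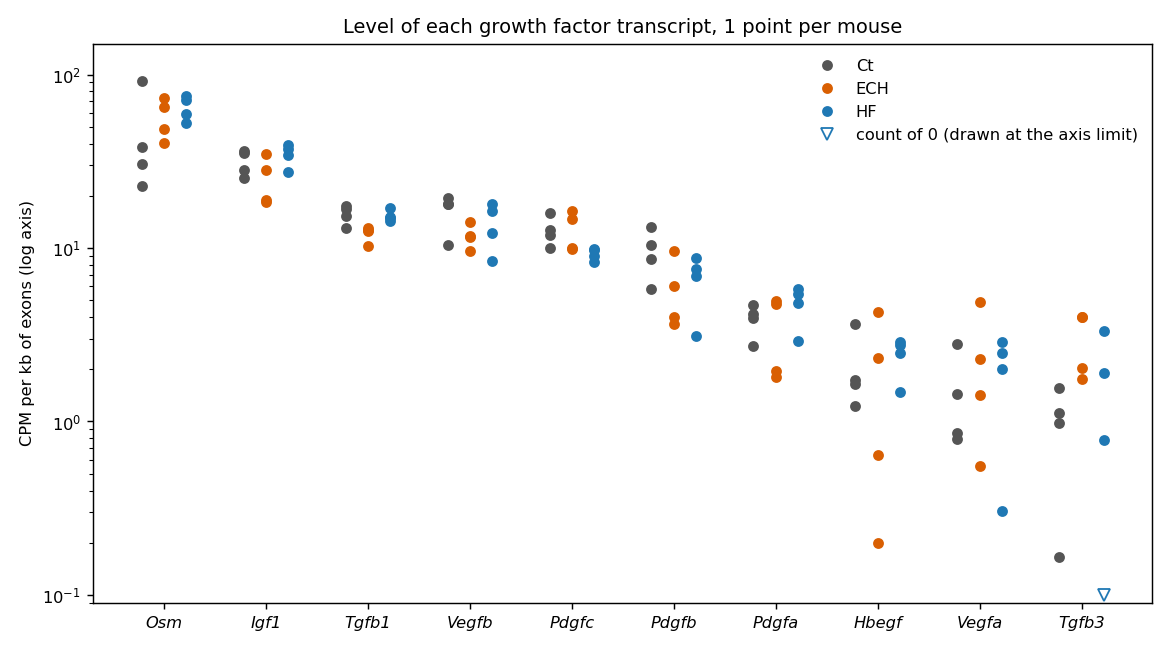
Level of the 10 growth factor transcripts as CPM per kb of exons (vertical axis, logarithmic), with 1 point per mouse and a colour for each group. Osm and Igf1 averaged 55.7 and 30.4 CPM per kb and Hbegf, Vegfa and Tgfb3 about 2, and the open triangle marks the count of 0 for Tgfb3 in HF mouse 1.

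None of the 10 genes was called in any comparison by edgeR's quasi-likelihood test at an FDR under 0.05 with at least a 2-fold change. Between ECH and Ct 0 of 10 were called, where 0.356% of all genes tested were called (52 genes). Between HF and Ct 0 of 10 were called against 0.377% of all genes (55 genes), and between HF and ECH 0 of 10 against 0% (0 genes). DESeq2, the likelihood ratio test of edgeR and limma-voom also called 0 of the 10 in all 3 comparisons. At an unadjusted p under 0.05, 1 of 10 passed between ECH and Ct (Tgfb1; 11.9% of all genes), 1 of 10 between HF and Ct (Pdgfc; 16.1%) and 3 of 10 between HF and ECH (Igf1, Tgfb1 and Pdgfc; 7.98%). The first 2 comparisons use the same Ct mice and are therefore not independent.

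The median log2 fold change of the 10 was -0.18 between ECH and Ct (0.01 over all genes), 0.18 between HF and Ct (-0.01) and 0.21 between HF and ECH (-0.02). The precision of these comparisons differed from gene to gene. For Tgfb1 the 95% interval between HF and Ct ran from -0.31 to 0.25 on the log2 scale, which leaves no room for a 2-fold difference in this fit. For Tgfb3 the same interval ran from -1.69 to 2.97, and for Hbegf from -1.24 to 1.68, so that a 2-fold difference in either direction was not resolved with 4 mice per group.

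**Figure D2:**
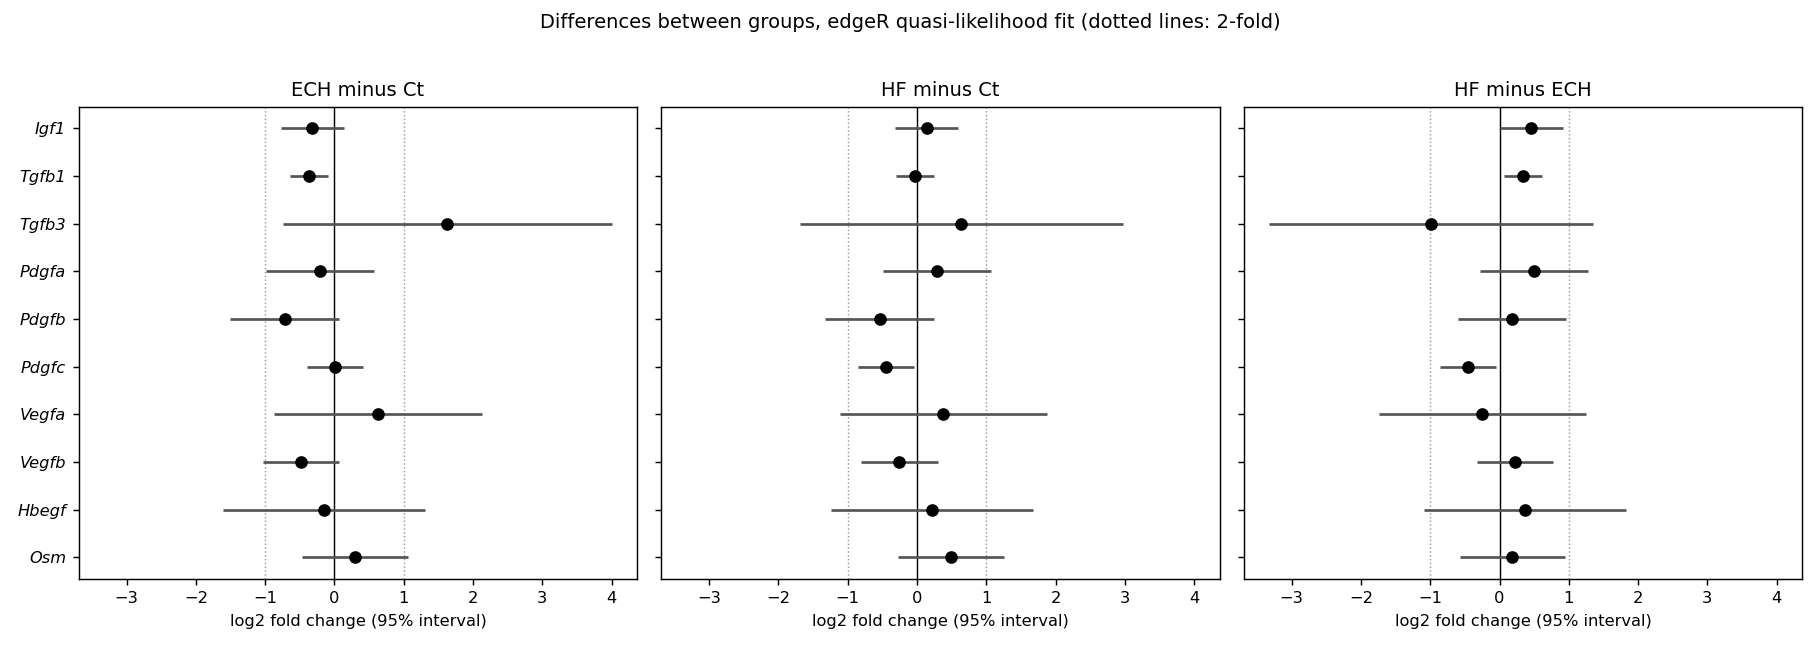
Log2 fold change of each growth factor gene (points) with its 95% interval (lines) from the edgeR quasi-likelihood fit, for ECH minus Ct, HF minus Ct and HF minus ECH, with dotted lines at a 2-fold change. Intervals that leave out 0 are those of Tgfb1 between ECH and Ct, of Pdgfc between HF and Ct, and of Igf1, Tgfb1 and Pdgfc between HF and ECH, and none of these genes passed after adjustment over all genes.

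Among the ligands that act on fibroblasts, Tgfb1 (chr7:25687002-25705077, plus strand, GRCm38) encodes the TGF-β isoform that drives matrix production. It held 87.5, 65.7, 77.6 and 84.9 CPM in Ct mice 1 to 4, and 63.7, 66.1, 51.8 and 63.3 CPM in the ECH mice. The HF mice held 76.4, 85.2, 75.3 and 72.1 CPM. ECH mice 1, 3 and 4 lay below all Ct mice, ECH mouse 2 lay just above Ct mouse 2, and all 4 HF mice lay above all 4 ECH mice.

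The log2 fold change of Tgfb1 between ECH and Ct was -0.37 ± 0.13 (SE; edgeR FDR = 0.268), with a 95% interval from -0.64 to -0.09. Without each mouse in turn it stayed between -0.44 and -0.29, with an FDR between 0.153 and 0.618. Between HF and ECH it was 0.34 ± 0.13 (edgeR FDR = 0.564), and between HF and Ct -0.03 ± 0.13 (edgeR FDR = 0.935). Genes whose ranges in HF and ECH do not overlap made up 6.92% of all genes tested, and 2 of the 10, Tgfb1 and Pdgfc, were among them. Tgfb1 was also steady within groups: only 7.60% of the 500 genes nearest to it in level had a smaller spread between mice of a group (SD of 0.15 on the log2 scale).

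Tgfb3 (chr12:86056745-86079041, minus strand) encodes another TGF-β isoform, with a role in mesenchyme. Its values were low and scattered, at 3.31, 0.558, 3.77 and 5.31 CPM in Ct and 6.92, 5.97, 13.6 and 13.6 CPM in ECH. In HF they were 0, 2.63, 11.2 and 6.41 CPM, where the 0 in HF mouse 1 allows up to 0.0287 CPM (3 counts). All 4 ECH mice lay above all 4 Ct mice, and the HF mice spread over both. The summed fibroblast markers, given above, were also higher on average in ECH than in Ct, with overlapping ranges, and their part in this value was not tested.

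The ranges of Tgfb3 in ECH and Ct did not overlap, which held for 7.97% of all genes tested and for this gene alone among the 10. The fit gave a log2 fold change of 1.63 ± 1.10 (SE; edgeR FDR = 0.612), since the spread within groups was wide: 98.4% of the 500 genes nearest in level had a smaller one. HF mouse 1 and Ct mouse 2, the lowest for Tgfb3, were the mice with the fewest genes detected (13600 and 14489). Without both, the values of the other mice placed Tgfb3 between 3.31 and 5.31 CPM in Ct and between 2.63 and 11.2 CPM in HF. Without each mouse in turn, the log2 fold change between ECH and Ct lay between 1.28 and 1.98, with an edgeR FDR between 0.281 and 0.824. Exons of Tgfb3 overlap annotated genes on the other strand over 420 bp, and the strand setting of the counting was not given, so reads of these genes cannot be told apart there.

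The PDGF chains recruit and expand fibroblasts and mural cells. Pdgfa (chr5:138976014-138997370, minus strand) held 12.998, 8.50, 12.3 and 14.7 CPM in Ct, 14.9, 15.4, 5.60 and 6.12 CPM in ECH and 9.09, 15.1, 17.04 and 18.1 CPM in HF. ECH mice 1 and 2 lay just above the highest Ct mouse, and ECH mice 3 and 4 below all mice of both other groups. This gave a log2 fold change of -0.21 ± 0.36 between ECH and Ct (edgeR FDR = 0.870) and 0.29 ± 0.36 between HF and Ct (edgeR FDR = 0.748). Exons of Pdgfa share 813 bp with an antisense gene, 6330403L08Rik, with the same limit on strand.

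Pdgfb (chr15:79995874-80014977, minus strand), whose product binds mainly to receptors of mural cells and fibroblasts, held 36.2, 55.1, 24.1 and 43.4 CPM in Ct and 25.0, 39.8, 16.6 and 15.1 CPM in ECH. The HF mice held 13.03, 31.5, 28.6 and 36.3 CPM. No ECH or HF mouse reached the highest Ct mice, and the groups overlapped. Its log2 fold change was -0.72 ± 0.37 between ECH and Ct (edgeR FDR = 0.474) and -0.54 ± 0.36 between HF and Ct (edgeR FDR = 0.507).

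Pdgfc (chr3:81036416-81214040, plus strand) encodes a PDGF that is secreted with a CUB domain and needs proteolysis to become active. It held 60.1, 51.1, 64.5 and 81.2 CPM in Ct, 74.7, 50.5, 51.1 and 82.7 CPM in ECH and 42.4, 50.3, 49.8 and 45.8 CPM in HF. All HF mice lay below all mice of both other groups, by a narrow margin at the lower end (50.3 CPM in HF mouse 2 against 50.5 CPM in ECH mouse 2). The log2 fold change was -0.45 ± 0.19 between HF and Ct (edgeR FDR = 0.272) and -0.46 ± 0.19 between HF and ECH (edgeR FDR = 0.594). Ranges that do not overlap between HF and Ct were found in 9.04% of all genes tested and, of the 10, for Pdgfc. Between ECH and Ct the log2 fold change was 0.01, with an interval from -0.39 to 0.42.

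**Figure D3:**
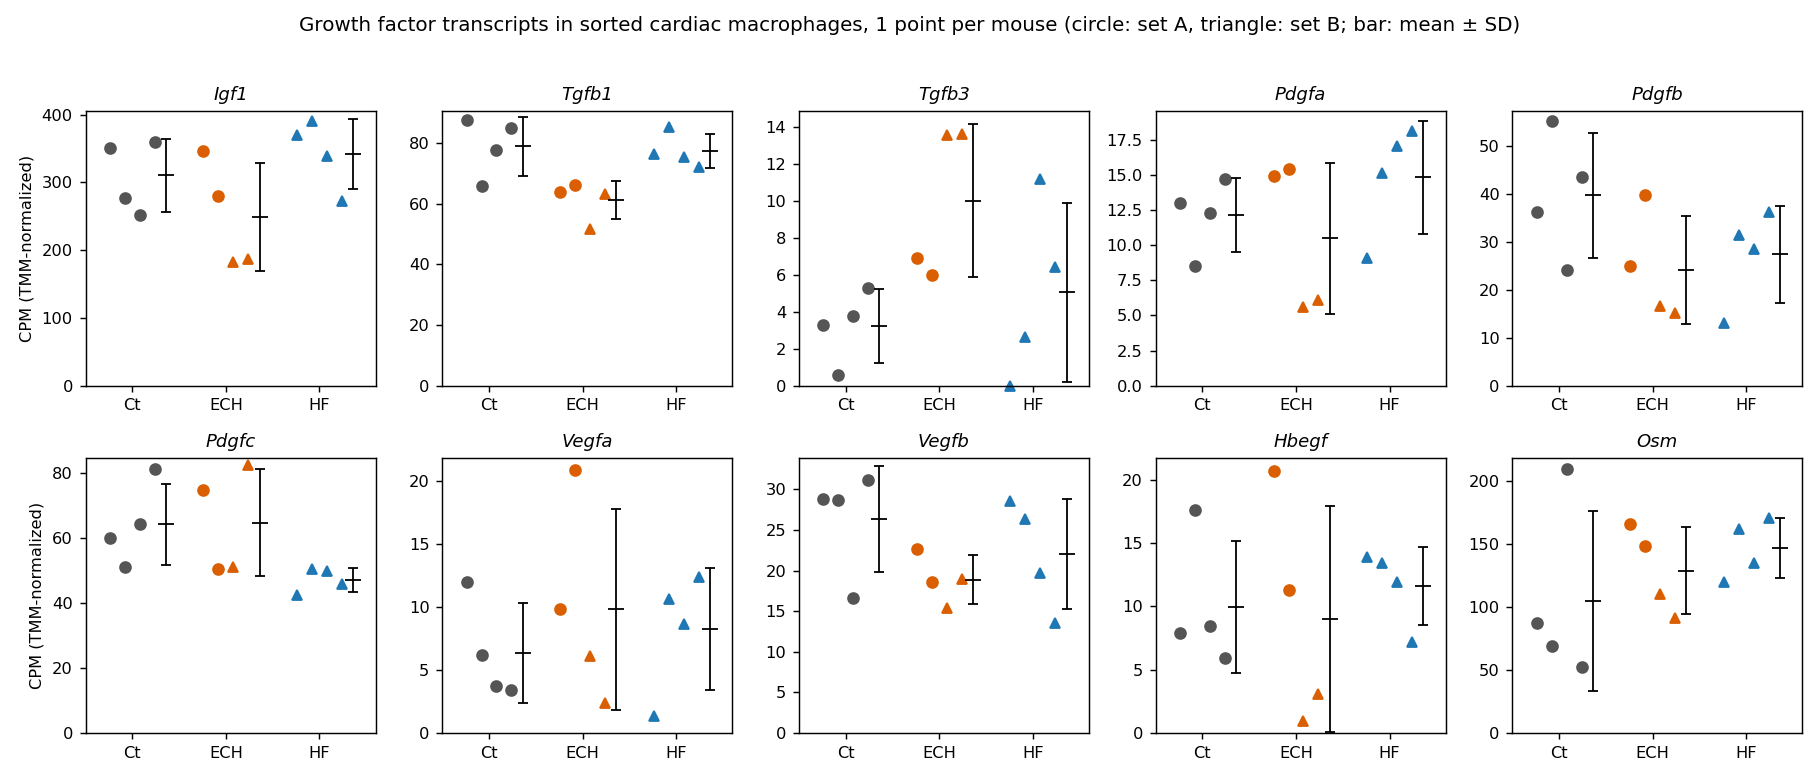
CPM of each growth factor gene (vertical axis, from 0) in every mouse, by group, with circles for library set A, triangles for set B and bars for the mean ± SD of 4 mice. In ECH the triangles lie below the circles for Igf1, Pdgfa, Pdgfb, Vegfa, Hbegf, Osm and, narrowly, Tgfb1, and above them for Tgfb3.

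Of the vascular growth factors, Vegfa (chr17:46016993-46032369, minus strand) encodes the main ligand for endothelial sprouting and is a classical target of hypoxia. It held 11.98, 6.21, 3.68 and 3.40 CPM in Ct, 9.82, 20.8, 6.13 and 2.37 CPM in ECH and 1.30, 10.6, 8.63 and 12.3 CPM in HF. The groups overlapped throughout, and the highest value, in ECH mouse 2, was 16.0 times the lowest, in HF mouse 1. In the fit the log2 fold change was 0.63 ± 0.69 between ECH and Ct (edgeR FDR = 0.773) and -0.05 without ECH mouse 2, and it was 0.38 ± 0.69 between HF and Ct (edgeR FDR = 0.837). Gene counts do not separate the splice forms of Vegfa.

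Vegfb (chr19:6982473-6987651, minus strand), a ligand of VEGF receptor 1 linked to fatty acid handling and coronary vessels, held 28.8, 28.7, 16.6 and 31.2 CPM in Ct and 22.6, 18.6, 15.3 and 18.9 CPM in ECH. The HF mice held 28.6, 26.3, 19.7 and 13.6 CPM. Each ECH mouse lay below 3 of the Ct mice and the fourth Ct mouse lay among them. The log2 fold change between ECH and Ct was -0.48 ± 0.26 (edgeR FDR = 0.494), and between HF and Ct -0.26 ± 0.26 (edgeR FDR = 0.678).

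Of the factors that act on cardiomyocytes, Igf1 (chr10:87858265-87937042, plus strand) promotes growth and survival. It held 351, 277, 252 and 360.0 CPM in Ct, 346, 281, 182 and 187 CPM in ECH and 369, 390.5, 339 and 272 CPM in HF. ECH mice 1 and 2 lay within the Ct range, while ECH mice 3 and 4 lay below every Ct and HF mouse. Over all mice the log2 fold change was -0.32 ± 0.21 between ECH and Ct (edgeR FDR = 0.607), 0.14 ± 0.21 between HF and Ct (edgeR FDR = 0.793) and 0.46 ± 0.21 between HF and ECH (edgeR FDR = 0.625).

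Hbegf encodes heparin-binding EGF-like growth factor, a membrane-anchored ligand of the EGF receptor that ADAM proteases shed. It held 7.90, 17.6, 8.41 and 5.96 CPM in Ct, 20.7, 11.3, 0.960 and 3.09 CPM in ECH and 13.9, 13.4, 11.96 and 7.15 CPM in HF. The ECH group held both the highest and the lowest mouse of all 12. The group means differed by less than the spread within ECH, with a log2 fold change of -0.15 ± 0.68 between ECH and Ct (edgeR FDR = 0.959) and 0.22 ± 0.68 between HF and Ct (edgeR FDR = 0.910).

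Osm (chr11:4236420-4241026, plus strand), the gene of the 10 with the most transcript per kb, encodes a cytokine that acts on cardiomyocytes and fibroblasts through receptors that contain gp130. It held 87.2, 69.2, 209 and 52.0 CPM in Ct, 165, 149, 110.0 and 91.0 CPM in ECH and 119, 162, 135 and 170.3 CPM in HF. Ct mouse 3 stood above all other mice, while the other Ct mice lay below all ECH and HF mice. The fitted log2 fold change was 0.30 ± 0.35 between ECH and Ct (edgeR FDR = 0.787) and 0.49 ± 0.35 between HF and Ct (edgeR FDR = 0.540). Without Ct mouse 3 these became 0.89 (edgeR FDR = 0.116) and 1.08 (edgeR FDR = 0.0529), still short of the threshold after adjustment. The Dixon test for a value that stands apart did not mark Ct mouse 3 for Osm.

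The ECH group was divided for most of these genes along the library sets. For 7 of the 10 (Igf1, Tgfb1, Pdgfa, Pdgfb, Vegfa, Hbegf and Osm) both ECH mice of set A lay above both of set B, for Tgfb3 they lay below, and Pdgfc and Vegfb were mixed. Over all genes tested the first arrangement held for 26.6% and the second for 27.8%. The mean of ECH mice 1 and 2 was 7.88 times that of ECH mice 3 and 4 for Hbegf, 3.60 times for Vegfa, 2.58 times for Pdgfa, 2.04 times for Pdgfb, 1.70 times for Igf1, 1.56 times for Osm and 1.13 times for Tgfb1. For Tgfb3 the mean of mice 3 and 4 was 2.11 times that of mice 1 and 2. These ratios of pairs of mice carry no test.

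**Figure D4:**
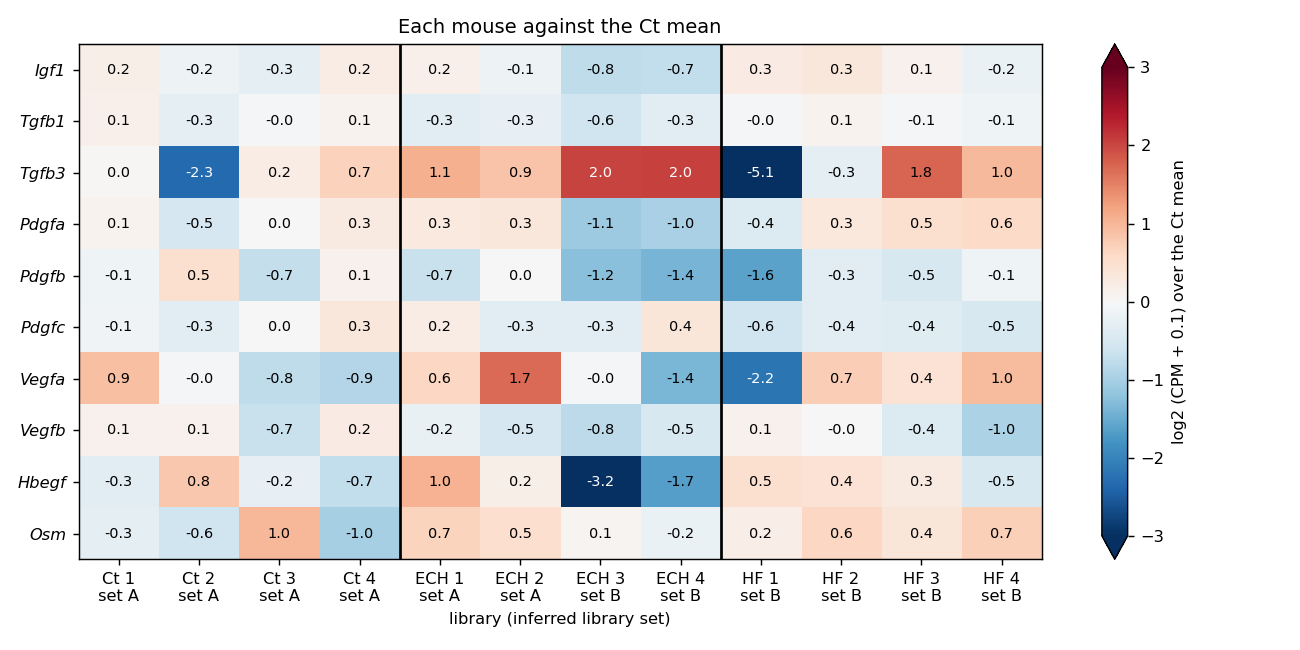
Log2 of CPM (0.1 added) in each mouse over the mean of the Ct mice, for the 10 growth factor genes (rows) and the 12 mice (columns, with the library set), with lines between the groups and red above and blue below the Ct mean. ECH mice 3 and 4 show the blue cells of Hbegf, Pdgfa, Pdgfb and Igf1 and the red cells of Tgfb3, and the cell at -5.1 is the count of 0 in HF mouse 1.

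Within a set the comparisons gave other values than over all mice. ECH mice 1 and 2 against the Ct mice, both of set A, gave 0 of 10 called by edgeR (0.00674% of all genes, 1 gene) and 0 of 10 at an unadjusted p under 0.05 (5.03%). There the log2 fold change of Igf1 was 0.01 ± 0.21 and that of Pdgfa 0.31 ± 0.31, against -0.32 and -0.21 over all ECH mice. That of Hbegf was 0.68 ± 0.48 and that of Vegfa 1.27 ± 0.57 (edgeR FDR = 0.947).

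In set B, the HF mice against ECH mice 3 and 4 gave 1 of the 10 called, where 2.49% of all genes were called (370 genes). This was Hbegf, which was higher in HF with a log2 fold change of 2.52 ± 0.57 (edgeR FDR = 0.0450). Igf1 was higher in HF by 0.89 ± 0.16 (edgeR FDR = 0.0203), less than the 2-fold change required, and Pdgfa by 1.34 ± 0.33 (edgeR FDR = 0.0588). At an unadjusted p under 0.05, 6 of 10 passed (21.2% of all genes): Igf1, Tgfb1, Pdgfa, Hbegf and Osm higher and Pdgfc lower in HF.

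With the set as a covariate in the fit of all 12 mice, Hbegf was again the only one of the 10 called between HF and ECH (2.52 ± 0.60, edgeR FDR = 0.0445), where 1.86% of all genes were called, and Igf1 had an FDR of 0.0298. With that covariate 0 of 10 were called between ECH and Ct (0.151% of all genes) and 0 of 10 between HF and Ct (1.42%). Between HF and Ct the log2 fold change moved from 0.22 to 3.20 for Hbegf (edgeR FDR = 0.0625), from 0.29 to 1.66 for Pdgfa (edgeR FDR = 0.0850), from 0.14 to 0.91 for Igf1 (edgeR FDR = 0.115), from 0.38 to 2.23 for Vegfa (edgeR FDR = 0.366) and from 0.49 to 1.13 for Osm (edgeR FDR = 0.401). Hbegf, Pdgfa and Igf1 passed an unadjusted p under 0.05 there, where 8.41% of all genes were higher at that p. No set holds both Ct and HF mice, so these values join the Ct and HF mice through the ECH mice of both sets. The HF and ECH values of these fits rest on ECH mice 3 and 4 alone, and those of ECH and Ct on ECH mice 1 and 2.

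Marker lists and the immediate-early genes had these values in the same mice. Summed over 6 platelet markers, ECH mice 1 and 2 held 2487 and 2318 CPM, while mice 3 and 4 held 853 and 1004 CPM, almost all of it from Pf4, while of the defining markers Itga2b was at most 1.94 CPM and Gp9 was at 0 in 8 of 12 libraries. The Mφ marker list summed to 48890 and 43990 CPM in the pair of set A, against 37120 and 36520 CPM in the pair of set B, with none of its 12 genes at 0, and within it Adgre1, which encodes F4/80, averaged 1315 and 667 CPM. The endothelial list summed to 44.2 and 53.6 CPM against 114 and 80.1 CPM, while the fibroblast list was not divided in this way (249.8 and 171 CPM against 94.8 and 490.5 CPM). The 20 immediate-early genes that tissue digestion can induce summed to 50460 and 35030 CPM against 22440 and 32580 CPM. Of them 10 were higher in both mice of set A than in both of set B (26.6% of all genes), 0 were lower in both (27.8%) and 10 overlapped. Btg2 was among the former, with 2294 and 1610 CPM against 1044 and 1595 CPM, and Junb overlapped, with 3689 and 2445 CPM against 1712 and 2573 CPM. Whether any of these had a part in the growth factor values was not tested.

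Across the 12 mice, the genes whose log2 CPM followed each member most closely were found among 11941 candidates. With that many candidates high coefficients are found for any gene, and the 12 points share the library sets, so these are a description. Hbegf was closest to Ccl4 (Pearson r = 0.97 over 12 libraries), Ccl2 and Snrpb, of which Ccl4 and Ccl2 encode chemokines. Igf1 was closest to P2ry13 (0.963), a purinergic receptor gene, then to Gpr34 and Myc, and Tgfb1 was closest to Plscr3 (0.945), then to Gpr34 and Cmtm2a.

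The closest genes to Tgfb3 were Dag1 (0.967), Smarcad1 and Naprt, and to Osm they were Pno1 (0.957), Mrps18b and Tuba1c. Pdgfa was closest to Gsap (0.92), Dusp5 and Hcls1, Pdgfb to 5830432E09Rik (0.891), Mtmr4 and Nfkb1, and Pdgfc to Ormdl3 (0.867), Snapc4 and Edrf1. Vegfa was closest to Olr1 (0.875), Mir155hg and Ppat, and Vegfb to Kmt2e (0.919), Ptov1 and Epor. Among the members themselves, the highest coefficients with Igf1 were those of Tgfb1 (0.76), Hbegf (0.757) and Pdgfa (0.702), and the lowest pair of all was Vegfb with Osm (-0.602).

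Promoter windows of 250 bp before the start were given by RefSeq (GRCm38.p6) for 6 of the 10 genes. Those of Igf1 and Tgfb1 are shown because the levels of both genes followed each other across the mice (r = 0.76), with the GC box GGGCGG (searched on both strands) in capitals. The Igf1 window is chr10:87860861-87861110 (plus strand), downstream of the start of the GENCODE gene model at 87858265, so it belongs to 1 of several starts. The Tgfb1 window is chr7:25686752-25687001 (plus strand).
Igf1: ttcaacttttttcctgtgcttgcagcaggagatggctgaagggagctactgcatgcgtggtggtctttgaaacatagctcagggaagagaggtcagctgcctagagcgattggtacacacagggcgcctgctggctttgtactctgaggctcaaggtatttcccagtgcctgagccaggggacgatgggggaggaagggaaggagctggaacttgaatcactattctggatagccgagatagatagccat
Tgfb1: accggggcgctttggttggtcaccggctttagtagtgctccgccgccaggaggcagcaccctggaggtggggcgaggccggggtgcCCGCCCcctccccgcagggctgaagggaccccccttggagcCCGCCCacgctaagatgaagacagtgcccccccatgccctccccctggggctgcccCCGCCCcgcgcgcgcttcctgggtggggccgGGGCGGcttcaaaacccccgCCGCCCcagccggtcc
The Tgfb1 window holds 5 GC boxes and is 75.2% G and C, while the Igf1 window holds 0 and is 52.8% G and C. Of 32851 windows of the same length, 32.7% hold at least 1. The cAMP response element TGACGTCA was found in 0 of the windows of these 6 genes and in 1.55% of all windows. A match, or none, describes these letters only.

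Genes that release and activate these factors were read from fixed lists. Of the list of latency and activation genes of TGF-β, 15 of 17 were tested, and 2 were called higher in ECH against Ct and 1 of them also in HF (0.267% of all genes were called higher in either comparison). At an unadjusted p under 0.05, 4 were higher (6.03% of all genes) and 1 lower (5.89%) in ECH, and 4 higher (7.35%) and 0 lower (8.72%) in HF. Thbs1, which encodes thrombospondin 1, an activator of latent TGF-β, held 91.6, 94.4, 51.8 and 53.0 CPM in Ct, 232, 329, 343 and 216 CPM in ECH and 86.8, 144, 126 and 259.9 CPM in HF. All ECH mice lay above all Ct mice. The log2 fold change between ECH and Ct was 1.94 ± 0.32 (edgeR FDR = 0.0202), and between HF and Ct it was 1.08 ± 0.32 (edgeR FDR = 0.144).

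Mmp14, which encodes the membrane-anchored protease MT1-MMP, held 11.6, 14.6, 8.43 and 10.3 CPM in Ct, 47.8, 49.9, 80.1 and 38.5 CPM in ECH and 32.4, 58.0, 55.8 and 56.1 CPM in HF. Every ECH and HF mouse lay above every Ct mouse. Its log2 fold change was 2.27 ± 0.27 in ECH (edgeR FDR = 0.00363) and 2.17 ± 0.27 in HF (edgeR FDR = 0.00335), and Mmp14 stayed called without each mouse in turn (highest FDR 0.0284 and 0.0192). Within set A the ECH value was 2.11, with an FDR of 0.132, and with the set as covariate the HF value was 1.89, with an FDR of 0.0601. Thbs1 lost its call without Ct mouse 1 (FDR = 0.0645), Ct mouse 4 (0.0729) or ECH mouse 3 (0.0797), and its value within set A was 1.94 with an FDR of 0.197, and 1.95 with an FDR of 0.0960 with the set as covariate.

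Others of this list did not pass. Itgb5, the integrin β5 chain, averaged 341 ± 60.9 CPM in Ct and 518 ± 76.8 in ECH (log2 fold change 0.60, edgeR FDR = 0.107), and Mmp9 averaged 86.2 ± 12.7 and 23.6 ± 10.7 CPM (-1.87, edgeR FDR = 0.0982). DESeq2 also called Mmp9 in ECH and Thbs1 in HF. Furin, a convertase that cleaves the TGF-β precursor, had log2 fold changes of 0.29 and 0.34 in ECH and HF (edgeR FDR = 0.445 and 0.264). Nrros, chosen here after its values were seen, encodes the anchor of latent TGF-β on myeloid cells and held 453.5 ± 109 CPM in Ct, 450.3 ± 95.3 in ECH and 589 ± 46.2 in HF.

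Of the proteases that shed or process the ligands, 11 of 13 were tested and 0 were called by edgeR or DESeq2 in any comparison, and 2 were higher in ECH (6.03% of all genes) and 1 in HF (7.35%) against Ct at an unadjusted p under 0.05. The first 2 were Adam9 (203 ± 65.3 CPM in Ct and 401 ± 91.5 in ECH, log2 fold change 0.98, edgeR FDR = 0.0914) and Adam10 (0.59, edgeR FDR = 0.331), sheddases with Hbegf among their substrates. Cd9, a tetraspanin that associates with the Hbegf protein, had a log2 fold change of 0.80 in HF against Ct (edgeR FDR = 0.144).

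**Figure D5:**
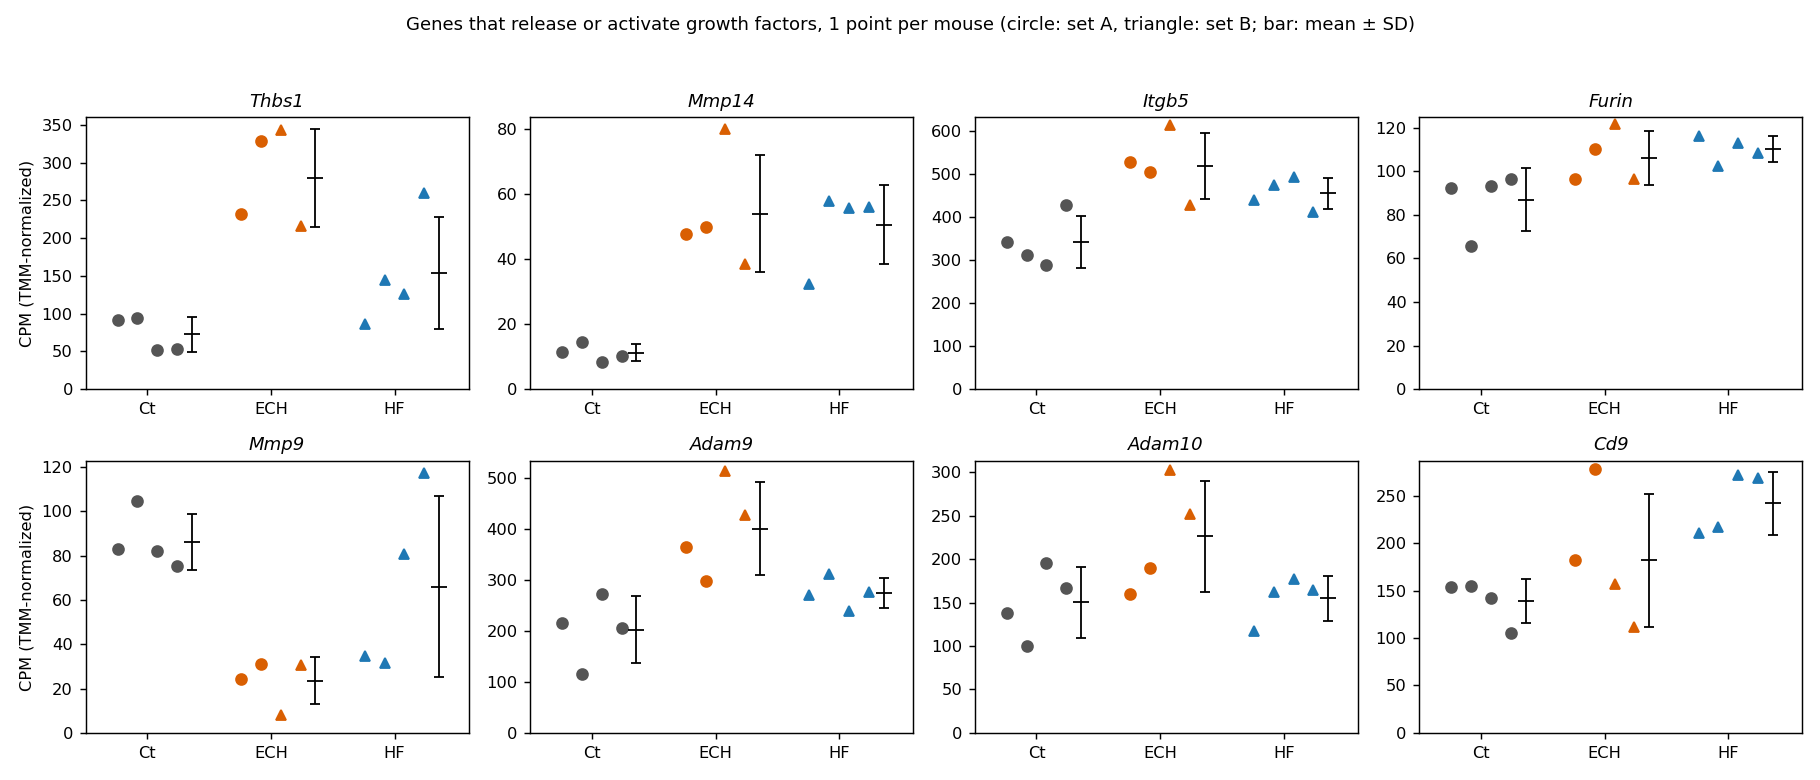
CPM (vertical axis, from 0) of 8 genes that release or activate growth factors in every mouse, by group, with circles for library set A, triangles for set B and bars for the mean ± SD of 4 mice. Mmp14 lies between 8.43 and 14.6 CPM in Ct and between 32.4 and 80.1 CPM in ECH and HF, and Thbs1 lies above all Ct mice in all ECH mice.

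The receptors were represented unevenly in the sorted cells. Tgfbr2 averaged 547, 412 and 449 CPM in Ct, ECH and HF and Nrp1, a co-receptor of VEGF, 499, 447.5 and 447 CPM, whereas Osmr stayed at a group mean of at most 0.479 CPM, Pdgfra at most 2.21 CPM and Pdgfrb at most 2.62 CPM. These 5 receptors were picked after their values were seen. Of the 21 receptor genes 20 were tested and 0 were called by edgeR or DESeq2, and at an unadjusted p under 0.05 2 were higher in ECH (6.03% of all genes), and 1 higher (7.35%) and 3 lower (8.72%) in HF, against Ct. Lifr, the receptor of leukemia inhibitory factor, was lower in HF, at 263 ± 40.5 CPM against 435 ± 45.3 in Ct (log2 fold change -0.73 ± 0.16, edgeR FDR = 0.0680), and Insr, the insulin receptor gene, had a log2 fold change of -0.83 (edgeR FDR = 0.210).

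Of the other ligands of these families, 15 of 19 were tested and 0 were called by edgeR, with 1 lower in ECH (5.89% of all genes) and 2 lower in HF (8.72%) against Ct at an unadjusted p under 0.05. DESeq2 called Il6 in both. Il6 had the lowest p, with 31.8 ± 22.4 CPM in Ct, 8.91 ± 3.57 in ECH and 9.49 ± 2.98 in HF (log2 fold change -1.83 and -1.74, edgeR FDR = 0.126 and 0.127). Of 21 further growth factors and cytokines 20 were tested and 1, Spp1, was called, in ECH and in HF (0.267% of all genes were called higher in either). At an unadjusted p under 0.05, 3 were higher in ECH (6.03%) and 2 in HF (7.35%). Spp1, which encodes osteopontin, rose from 49.1 ± 22.6 CPM in Ct to 672.5 ± 425 in ECH and 671 ± 330.3 in HF (log2 fold change 3.78 and 3.77, edgeR FDR = 0.0139 and 0.0123). Without Ct mouse 1 the FDR of the first became 0.0628, and without Ct mouse 4 that of the second became 0.0504. Within set A the ECH value was 3.65 with an FDR of 0.197, with only the groups compared its FDR was 0.0638, and with the set as covariate the HF value was 3.55 with an FDR of 0.0796.

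Of that same list, Grn, which encodes progranulin, had a log2 fold change of 0.39 in ECH (edgeR FDR = 0.237). Flt4, Epgn, Igfals and Fgf7, which the rule also names, were at most 0.522, 0.740, 0.908 and 3.42 CPM in any mouse, and Fgf7 was called in HF by DESeq2. Of the 12 IGF-binding genes 6 were tested and 0 were called by edgeR or DESeq2, with 1 higher in ECH (6.03% of all genes), and 1 higher (7.35%) and 1 lower (8.72%) in HF, at an unadjusted p under 0.05. Igfbp4 was divided in the ECH group as Igf1 was, with 379 and 405 CPM in the pair of set A but 96.7 and 119 CPM in the pair of set B, where Ct mice held 249.7 to 311 CPM and HF mice 414 to 562 CPM. Igfbp7 averaged 9.65 CPM in Ct and 25.8 CPM in ECH (edgeR FDR = 0.296).

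Lists of known target genes were read in the same Mφ. Of 14 TGF-β target genes, 1, Bhlhe40, was called, in HF (0.267% of all genes were called higher), with 30.2 ± 10.3 CPM in Ct and 87.7 ± 15.8 in HF (log2 fold change 1.54, edgeR FDR = 0.0455). This call was lost without any one of 9 of the 12 mice and with the replicate block, at an FDR of up to 0.141. The list median was -0.18 in ECH and -0.27 in HF. Id2 (0.59 in HF, edgeR FDR = 0.223) and Ski (-0.56 in ECH, edgeR FDR = 0.310) did not pass.

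Of 10 targets of oncostatin M 0 were called by edgeR, and at an unadjusted p under 0.05 4 were higher (6.03% of all genes) and 1 lower (5.89%) in ECH, and 3 higher (7.35%) and 1 lower (8.72%) in HF, against Ct. DESeq2 called Il4ra, Saa3 and Timp1 in ECH and Timp1 in HF. Il4ra had the lowest p (1.05 in ECH, edgeR FDR = 0.0596), followed by Timp1 (1.69 in HF, edgeR FDR = 0.117) and Stat3 (0.58 in ECH, edgeR FDR = 0.175). Of 18 hypoxia genes other than Vegfa, 0 were called by edgeR (Pgk1 in HF by DESeq2), and at an unadjusted p under 0.05 7 were higher in ECH and 6 in HF against Ct (6.03% and 7.35% of all genes were higher at that p). The list median was 0.49 and 0.45, with Pgk1 at 1.15 in HF (edgeR FDR = 0.0629), Aldoa at 0.57 in HF (edgeR FDR = 0.107) and Bnip3 at 0.90 in ECH (edgeR FDR = 0.135). Vegfa itself had the values given above and overlapped between all groups.

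Of 12 genes of the cAMP response, the pathway downstream of β-adrenergic receptors, 0 were called by edgeR (Sik1, Per1 and Fosl2 in HF by DESeq2), and 4 in ECH and 7 in HF were lower at an unadjusted p under 0.05 (5.89% and 8.72% of all genes). Sik1 had a log2 fold change of -1.26 in HF against Ct (edgeR FDR = 0.103), Per1 -1.26 (edgeR FDR = 0.161) and Fosl2 -1.13 (edgeR FDR = 0.181). DESeq2 also called Sik1 lower between HF and ECH. In ECH, Sik1 held 33.3 and 23.2 CPM in the pair of set A and 66.8 and 69.0 CPM in the pair of set B. Nr4a1 and Dusp1 are on this list and also on that of the immediate-early genes. Of 20 immediate-early genes that digestion can induce, 0 were called by edgeR (Fosb in both by DESeq2), and 12 in ECH and 12 in HF were lower at that p, with list medians of -0.66 and -0.70. Btg2 (2880 ± 379 CPM in Ct and 1564 ± 372 in HF), Ier2 and Junb were the 3 with the lowest p (edgeR FDR between 0.110 and 0.231). Hbegf and Il6 are also known as genes that respond early to stimulation. The part of digestion in their values, and in those of the cAMP list, was not tested.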

How the data were processed

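RNA of FACS-sorted CD14+/CD64+ cardiac Mφ from 4 Ct, 4 ECH and 4 HF mice was analysed, grouped by the condition in the labels. The authors made libraries with the SMART-Seq v4 kit, trimmed and aligned the reads (TopHat2, build mm10) and obtained gene counts from featureCounts. The deposited files hold raw counts without normalization. Not given in the sources used here are software versions, gene annotation, the strand setting, the unit counted (read or fragment) and any sequencing run behind the library numbers.

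The analysis used edgeR 4.0.16 under R 4.3.3: filterByExpr by group, TMM, 1 model with a mean per group, quasi-likelihood tests and Benjamini-Hochberg adjustment over 14608 genes. Calls required an FDR under 0.05 together with at least a 2-fold change. CPM use TMM-scaled totals, log2 CPM has 0.1 CPM added, and intervals are at 95%. The biological coefficient of variation was 60.8%. Counts carry no molecular identifiers, so the limit for a count of 0 (3 counts) covers counting error only. P-values measure the spread between mice. The code was tested on simulated data.

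The members and the 11 pathway and 13 marker lists were chosen with earlier results of these data known. Named are the members, list genes that were called, up to 3 others per list with the lowest p under 0.05, and the 3 genes most like each member among genes with a mean of at least 1 CPM. One list gene that the rule names is not reported here. The marker lists cover Mφ, resident Mφ, Ly6C-high monocytes, dendritic cells, neutrophils, B cells, T and NK cells, mast cells, endothelial cells, fibroblasts, mural cells, cardiomyocytes and platelets. Exon lengths came from GENCODE M21 (GRCm38) and promoters from RefSeq. Alternatives were RLE scaling, DESeq2 1.42.0, the edgeR likelihood ratio test, limma-voom (limma 3.58.1), other filters, only the groups compared, a replicate block, the library set, and leaving out mice. Figures were drawn with matplotlib.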

Additional observations from a re-analysis of the deposited data

Results flagged for a closer look

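The Dixon test was applied to 132 groups of 4 mice, 30 of them of the 10 growth factor genes, and marked 4, none of them a growth factor group. Chance marks about 1 in 20 groups (5%). In Ct mouse 1 Flt4 was marked at 0.0200 CPM and in Ct mouse 4 Igfals at 0.290 CPM, while the other 3 Ct mice were at 0 in each case. Where 3 mice are at 0, any other value is marked. The Flt4 value was a count of 2, under the limit of 3 counts used for a 0. Mmp14 in HF mouse 1 was 32.4 CPM against 55.8 to 58.0 CPM in the other HF mice. Furin in Ct mouse 2 was 65.7 CPM against 92.5 to 96.6 CPM in the other Ct mice. HF mouse 1 and Ct mouse 2 had the fewest genes detected, and the part of this in these values was not tested.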

How the results depend on the processing

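There were 4 mice per group, with a 60.8% coefficient of variation. Between HF and Ct, a 2-fold difference in either direction was not resolved for Tgfb3, Vegfa and Hbegf. Their log2 intervals ran from -1.69 to 2.97, -1.11 to 1.88 and -1.24 to 1.68, in that order. Between ECH and Ct, the interval of Tgfb3 ran from -0.75 to 4.01. The number of growth factor genes called stayed at 0 in all 3 comparisons under RLE scaling, DESeq2, the likelihood ratio test, limma-voom, other filters, only the groups compared and without each mouse (0 to 0), with the exception of HF against ECH with the library set as covariate or within the set (1, Hbegf). Calling at an unadjusted p under 0.05 gave 1, 1 and 3. Of 680 refits of log2 fold changes, 640 kept direction and call.

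The counts of all genes called (52, 55 and 0 between ECH and Ct, HF and Ct, HF and ECH) became 248, 333 and 47 in DESeq2, 218, 273 and 48 by likelihood ratio tests, 84 and 130 with limma-voom for the first 2, 22, 208 and 272 with the library set as covariate, 1 and 370 within the set for the first and last, 8 with only the groups compared for the first, and 1741, 2347 and 1165 at an unadjusted p under 0.05. Leaving out 1 mouse gave 11 (without Ct mouse 1) to 95 (without Ct mouse 3), 15 (without Ct mouse 1) to 103 (without Ct mouse 3), and 0 to 0. The growth factor genes at an unadjusted p under 0.05 (1, 1 and 3) became 2 for the first with DESeq2, with only the groups compared or without Ct mouse 2 and HF mouse 1, 2 for the second with limma-voom, 0, 3 and 5 with the library set as covariate, 0 and 6 within the set for the first and last, and 1 for the last without Ct mouse 2 and HF mouse 1. Leaving out 1 mouse gave 1 to 4, 0 to 1 and 1 to 3.

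Mice with the same number did not deviate together (r between -0.181 and 0.132 over 12 pairs, 1 over 0.1, and 0 libraries closest to one of their own number). These deviations show no pairing by number, but they cannot decide whether mice of a number were handled together. With the replicate block 22 and 18 genes were called between ECH and Ct and HF and Ct, none of them a growth factor gene, Thbs1, Spp1 and Bhlhe40 lost their calls (FDR between 0.0566 and 0.129), and the Vegfa value between HF and ECH became 0.10.

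These growth factor values changed direction. Between ECH and Ct, Pdgfc (0.01) became -0.094 with limma-voom, -0.0019 with the CPM filter, -0.0012 with only the groups compared, -0.036 with the set as covariate, -0.045 within the set and -0.094 without Ct mouse 2 and HF mouse 1. With the set as covariate and within the set, Igf1 became 0.014 and 0.0058, Pdgfa 0.32 and 0.31 and Hbegf 0.68 and 0.68, and Hbegf was 0.27 without Ct mouse 2 and HF mouse 1. Without 1 mouse, Pdgfc lay between -0.13 and 0.15, Hbegf between -0.97 and 0.28, Vegfa between -0.048 and 1.14 and Pdgfa between -0.45 and 0.0017. Between HF and Ct, the set as covariate gave 0.14 for Tgfb1, -0.43 for Tgfb3, 0.49 for Pdgfb and 0.0098 for Vegfb, and without 1 mouse Tgfb1 lay between -0.11 and 0.023 and Tgfb3 between -0.11 and 1.06. Between HF and ECH, Vegfa (-0.25) became 0.15 with limma-voom, 0.95 with the set as covariate, 0.96 within the set and 0.11 without Ct mouse 2 and HF mouse 1, and lay between -0.57 and 0.43 without 1 mouse, and Hbegf lay between -0.0076 and 1.19. The cause was not tested.

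With the longest transcript as length, levels became 42.6 for Igf1, 28.2 for Tgfb1, 6.06 for Pdgfa, 10.3 for Pdgfb, 16.7 for Pdgfc and 3.53 for Hbegf (CPM per kb).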
